A study of Mus musculus with 15 samples.

Results

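Cortex in which microglia had returned after drug withdrawal was compared with cortex that had never been depleted: 5 repopulation libraries against 5 control libraries, 10 of the 15 libraries in the series. The libraries were taken by their labels, and all 53278 genes of the count table were considered, of which 18369 had enough counts to be tested. Every library was bulk RNA from the brain cortex of 1 male C57BL/6J mouse aged 10 to 20 weeks. Control mice ate control food. Repopulation mice ate food with PLX3397, an oral inhibitor of the CSF1 receptor kinase, for 9 days, followed by 9 days on control food. The remaining 5 mice, the depletion group, ate PLX3397 food for 9 days and were taken without a recovery period. Their levels show from where each gene returned, and their libraries were also part of the fit behind the tests. All mice were wild type, and no transgene marked or removed microglia. The labels give no sampling day for the control mice, so whether they were taken beside the depletion mice or the repopulation mice is not known from the sources used here.

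Microglia, the macrophages that live in brain tissue, need signalling through the receptor CSF1R to survive, so an inhibitor of its kinase empties the tissue of most of them. After withdrawal the population is known to regrow, mainly by division of surviving microglia. Type I interferons act through the receptor pair IFNAR1 and IFNAR2 and the kinases JAK1 and TYK2. These phosphorylate STAT2, which joins IRF9 in a complex that binds the interferon-stimulated response element, a short DNA motif before the start of many antiviral genes.

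Library totals ran from 24347802 to 48617851 counts in the control group and from 26837517 to 29582274 in the repopulation group; levels are given below as CPM, counts divided by the library's total and scaled to the same total for all libraries. On the first principal component, with 27.2% of the variance of log2 CPM, the control libraries lay between -24.2 and -10.5 and the repopulation libraries between 12.1 and 25.2. Excitatory neuron markers were expressed in both groups, with the vesicular glutamate transporter gene Slc17a7 at 1442 ± 51.9 CPM (SD, n = 5) in control and 1279 ± 80.6 CPM (SD, n = 5) after repopulation. Slc17a7 was called lower after repopulation, with no overlap (log2 fold change -0.18, SE 0.04, edgeR adjusted p = 0.00115). Of 10 excitatory neuron genes, 0 were higher and 2 lower (20.0%, against 15.2% of all genes). A few libraries stood apart in genes of neighbouring brain tissue. Control 1 had the hippocampal genes Lct at 10.1, Dsp at 8.49 and C1ql2 at 8.68 CPM, against at most 3.31 CPM in any other control or repopulation library. Repopulation 4 had the choroid plexus gene Ttr at 482 CPM, against at most 14.6 CPM elsewhere in these 10 libraries. Without these 2 libraries, 41 genes of the interferon response list described below were called higher, with 44 in all libraries.

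Between the groups, 2548 genes were higher after repopulation (13.9% of those tested) and 2797 were lower (15.2%), by edgeR's quasi-likelihood test with a Benjamini-Hochberg adjusted p under 0.05. Most differences were small: 89.6% of the called genes differed by less than 0.5 log2 units. The median log2 fold change was 0.24 among genes called higher and -0.24 among genes called lower, with 0.01 over all tested genes. At least 1 log2 unit separated the groups for 64 genes called higher (0.348%) and 25 called lower (0.136%), and 14 of the former belonged to a list of interferon response genes. The 5 libraries of each group did not overlap at all for 2004 genes that were higher (10.9%) and 2101 that were lower (11.4%).

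The shares of genes called higher and lower varied with transcript length and base composition. Among the 20% of genes with the longest exon models, at least 7033 bases, 38.4% were called higher and 4.9% lower. Among the shortest 20%, 3.59% were called higher and 21.0% lower. By GC content, 22.3% of the lowest 20% of genes were called higher and 5.12% of the highest 20%. After length and GC trends had been removed from each library, 1358 genes were higher (7.39%) and 2930 were lower (16.0%). The count of higher genes thus shrank and that of lower genes did not. The median log2 fold change over all tested genes was then -0.02, with 0.01 before. RNA quality values were not among the sources used here, and the part of RNA quality in this trend was not tested. Counts with the trends taken out are given below beside each gene list they change by more than 1.5 times.

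**Figure D1:**
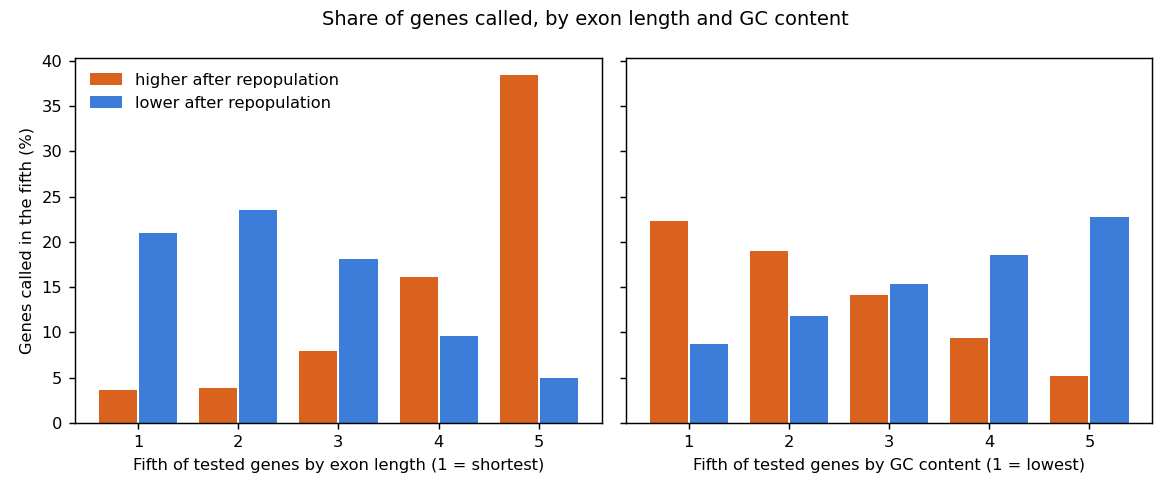
Percent of tested genes called higher (orange) or lower (blue) after repopulation, in bins of 20% of the genes by exon length in bases (left) and by GC content (right). The share called higher climbs from 3.59% in the shortest bin to 38.4% in the longest, and falls from 22.3% to 5.12% along GC content.

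Among the gene lists described here, that of interferon-induced genes had the highest share of members called higher. Of 53 tested members of a 54-gene interferon response list, 44 were called higher and 0 lower (83.0% of the list, against 13.9% of all genes), and 42 were higher with length and GC trends taken out. No member was lower at an unadjusted p under 0.05 or with DESeq2 either, which called 40 higher. The median log2 fold change of the list was 0.64, and 52 of the 53 members lay above zero. The groups did not overlap for 30 of the 53 members, all higher after repopulation, against 10.9% of all genes higher without overlap. The summed CPM of the list was 263 to 286 in control libraries, 239 to 285 in depletion libraries and 360 to 447 in repopulation libraries. In the depletion group, 37 of the 53 members had a mean between 80% and 120% of control, and 33 of these 37 were higher after repopulation. The comparisons of depletion and of repopulation with control share the same control libraries.

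Many of these genes carry the response element close to their start. The 10-base core, in which the letters GAAA stand on either side of 2 bases of any kind, was searched on both strands in the 250 bases before the start of each gene, and overlapping matches were allowed. It was present in 17 of the 37 tested interferon response genes with a RefSeq promoter window (45.9%), in 395 of 12630 tested genes (3.13%) and in 936 of all 27025 genes with a window (3.46%). Among genes called higher outside the interferon list the share was 45 of 1847 (2.44%). A match describes the sequence and does not show that a factor was bound. The stretches below, from RefSeq on build GRCm38.p6, show the core in capitals (on the opposite strand TTTC stands on either side) in 6 genes that rose and in Gbp2, which did not pass the test. Each is written 5′ to 3′ on the strand of its gene. They lie at chr8:61928019-61928058 (Ddx60, plus strand), chr19:34583358-34583397 (Ifit3, plus), chr19:34640770-34640809 (Ifit1, plus), chr4:156200866-156200905 (Isg15, minus), chr8:71537572-71537611 (Bst2, minus), chr2:122147533-122147572 (B2m, plus) and chr3:142620589-142620628 (Gbp2, plus).
Ddx60: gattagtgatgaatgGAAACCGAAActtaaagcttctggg
Ifit3: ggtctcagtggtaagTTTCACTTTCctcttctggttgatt
Ifit1: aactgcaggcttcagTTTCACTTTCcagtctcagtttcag
Isg15: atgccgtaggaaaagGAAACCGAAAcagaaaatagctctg
Bst2: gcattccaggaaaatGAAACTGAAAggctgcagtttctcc
B2m: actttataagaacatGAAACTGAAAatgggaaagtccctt
Gbp2: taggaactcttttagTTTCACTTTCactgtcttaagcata

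The element before Isg15 reads as 3 overlapping matches, and that before Ifit3 occurs with identical flanks before its neighbour Ifit3b. Ifit3 and Ifit3b are near-identical copies on chromosome 19 among which the counting may have split reads, so their separate levels are uncertain.

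The effector genes of the antiviral response showed the changes library by library. Ifit3, an interferon-induced gene, stood at 5.27, 4.73, 6.35, 5.22 and 4.67 CPM in controls 1 to 5 and at 9.47, 11.3, 11.9, 10.6 and 14.5 CPM in repopulation 1 to 5. No repopulation library came down to the highest control. The difference was 1.13 log2 units (SE 0.11, edgeR adjusted p = 4.86e-07). The depletion mean was 5.13 CPM, close to the control mean of 5.25 CPM. Lgals3bp, which encodes a secreted glycoprotein induced by interferon, had 11.4, 11.3, 11, 11.6 and 9.49 CPM in controls and 21.9, 33.0, 32.9, 28.5 and 43.3 CPM after repopulation. The difference was 1.53 log2 units (SE 0.15, edgeR adjusted p = 8.11e-06), the groups well apart and repopulation 5 the highest.

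Ddx60, an RNA helicase gene of antiviral sensing, had 0.823, 0.551, 0.69, 1.19 and 0.785 CPM in controls and 2.26, 2.42, 2.05, 2.96 and 3.86 CPM after repopulation. The lowest repopulation library was above the highest control, with a log2 fold change of 1.75 (SE 0.25, edgeR adjusted p = 1.47e-05). Oasl2, a relative of the oligoadenylate synthetases, went from 2.86, 3.44, 3.97, 4.68 and 3.65 CPM to 7.0, 9.97, 8.94, 7.25 and 12.2 CPM, a log2 fold change of 1.30 (SE 0.16, edgeR adjusted p = 9.73e-06). Ifi44 rose by 1.76 log2 units from a mean of 0.472 CPM and Ifit1 by 1.15 from 2.89 CPM. Isg15, a ubiquitin-like modifier, rose by 0.67 (edgeR adjusted p = 0.00582) and its groups touched, with 1.92 CPM in the highest control and 1.89 CPM in the lowest repopulation library. Mx1, Zbp1, Ifi204 and Ifi27l2a all rose by more than 1 log2 unit from means under 0.4 CPM.

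**Figure D2:**
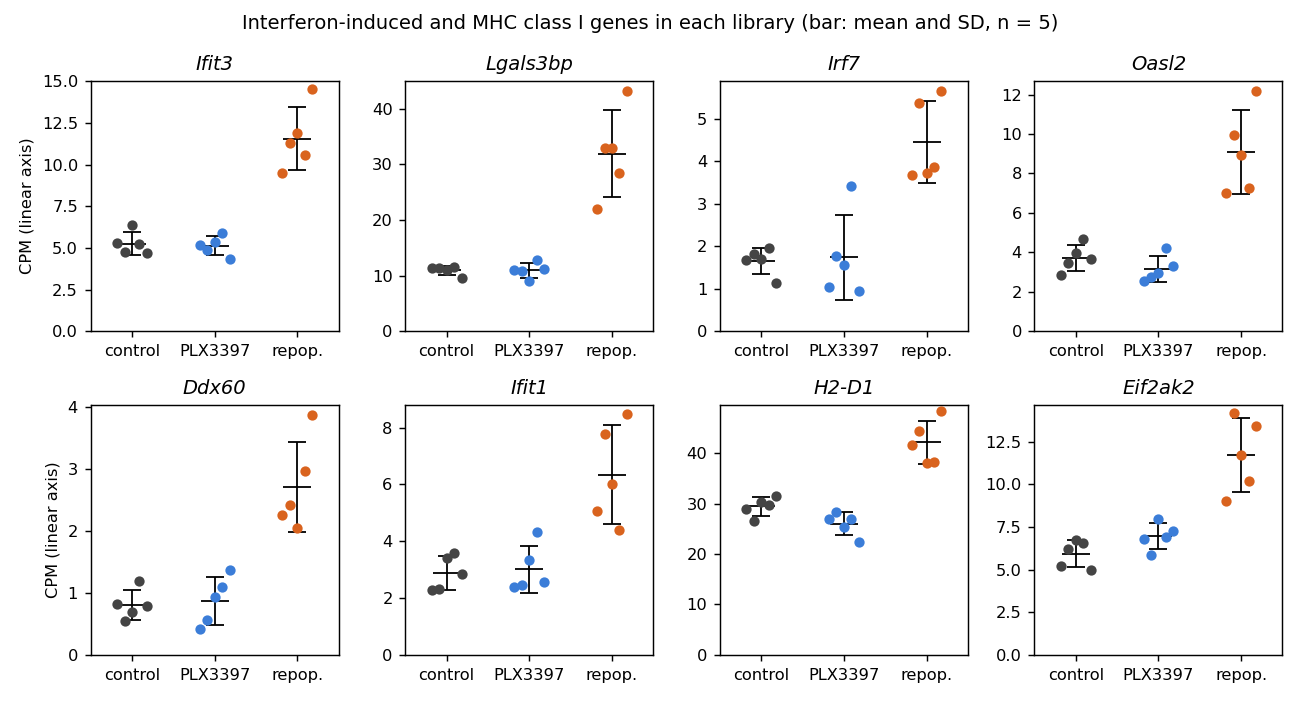
CPM per library (points) with mean and SD (black, n = 5) for 8 interferon-induced or MHC class I genes in control, PLX3397 and repopulation cortex, each on a linear axis from 0. In all 8 panels the lowest repopulation library lies above the highest control library, and the PLX3397 means sit near control. For Irf7, depletion 4 stands at 3.43 CPM, above the highest control at 1.97 CPM.

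Among transcription factors of the pathway, Irf7 and Irf9 rose, and Irf2 and Irf3, given with the upstream genes, were called lower. Irf7, the factor that amplifies interferon production, had 1.67, 1.82, 1.69, 1.97 and 1.14 CPM in controls and 3.68, 5.37, 3.73, 3.86 and 5.65 CPM after repopulation (log2 fold change 1.42, SE 0.26, edgeR adjusted p = 0.000656). Its exons overlap those of Phrf1 on the other strand, and whether the counting used strand is not given in the sources used here. Irf9 rose by 0.29 (SE 0.08, edgeR adjusted p = 0.008). Eif2ak2, the kinase PKR that halts translation on double-stranded RNA, rose by 0.98 (SE 0.12, edgeR adjusted p = 3.13e-06).

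The upstream ligands and receptors were called at shares near those of all genes. Of 15 genes for interferons, their receptors, kinases and regulators, 12 were tested, 1 was called higher (8.33%, against 13.9% of all genes) and 2 lower (16.7%, against 15.2%), and the median log2 fold change was -0.02. With length and GC trends taken out 1 was lower. Ifnb1 and Ifng had 0 counts in all 5 control and all 5 repopulation libraries, which allows up to 0.019 CPM in the pooled controls and 0.0211 CPM in the pooled repopulation libraries, for counting error only. Jak1 rose by 0.16 (SE 0.03, edgeR adjusted p = 0.000262), or 0.09 with length and GC trends taken out, and Irf2, a repressor of interferon targets, fell by 0.25 on the log2 scale (edgeR adjusted p = 0.00226). The receptor gene Ifnar1 had a log2 fold change of 0.08 (SE 0.04, edgeR adjusted p = 0.223) and Ifnar2 one of 0.00 (SE 0.07, edgeR adjusted p = 0.978). The second gene called lower, Irf3, had a log2 fold change of -0.20 (edgeR adjusted p = 0.0224), and it lost its call with length and GC trends taken out (edgeR adjusted p = 0.107) and without control 5 (edgeR adjusted p = 0.0751), repopulation 2 (0.0703) or repopulation 5 (0.0727). Against the same controls, depletion already differed in the same direction for Jak1 (log2 fold change 0.13), Irf2 (-0.25) and Irf3 (-0.20). Each of these depletion differences had an edgeR adjusted p under 0.05.

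Antigen presentation genes were described by class, and the difference between the classes was not tested. MHC class I molecules show cytosolic peptides to CD8 T cells, and 9 of 20 genes for these molecules and their peptide supply were higher (45.0%, against 13.9% of all genes) and 2 lower (10.0%, against 15.2%), with a list median of 0.30. H2-D1, a class I heavy chain, had 29.0, 26.6, 30.3, 29.8 and 31.5 CPM in controls and 41.6, 44.3, 38.1, 38.3 and 48.3 CPM after repopulation, with no overlap (log2 fold change 0.52, SE 0.07, edgeR adjusted p = 6.39e-06). B2m, the light chain shared by class I molecules, had 54.6 to 61.8 CPM in controls and 68.9 to 77.3 CPM after repopulation (0.34, SE 0.05, edgeR adjusted p = 2.42e-05). Tap1, a subunit of the peptide transporter, rose by 0.74 (SE 0.13, edgeR adjusted p = 0.000117), and Nlrc5, the transactivator of class I genes, rose by 0.97 (SE 0.19, edgeR adjusted p = 0.000478). Class I heavy chains are close paralogs, so the share of reads given to each is uncertain. Psmb10, an immunoproteasome subunit, fell by 0.38 on the log2 scale (SE 0.06, edgeR adjusted p = 7.44e-05).

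MHC class II molecules present extracellular peptides, and 0 of 7 class II genes were higher and 1 lower (14.3%, near the 15.2% of all genes), with all 7 below zero and a median of -0.34. Without repopulation 2 the lower count was 2; none was higher at an unadjusted p under 0.05 or with DESeq2. H2-Ab1, a class II beta chain, had 1.28, 0.713, 1.41, 0.78 and 0.981 CPM in controls and 0.608, 0.612, 0.447, 0.357 and 0.14 CPM after repopulation. Every repopulation library was below every control, and on the log2 scale the difference was -1.26 (SE 0.30, edgeR adjusted p = 0.00205). H2-Aa had a log2 fold change of -0.69 (SE 0.30, edgeR adjusted p = 0.0868) and Cd74, the class II invariant chain, one of -0.34 (SE 0.16, edgeR adjusted p = 0.128).

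**Figure D3:**
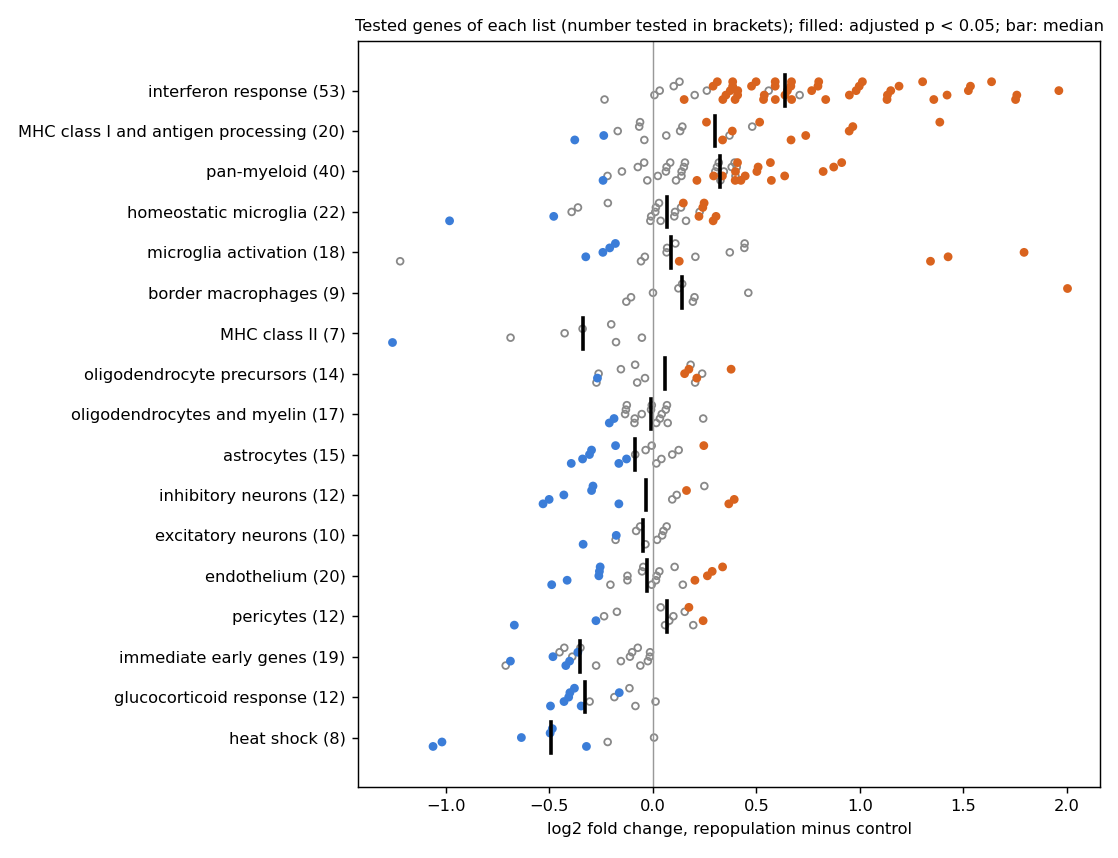
Log2 fold change, repopulation minus control, of every tested gene in 17 lists (1 point per gene; filled where the adjusted p is under 0.05, orange higher, blue lower; black bar, list median). The interferon response list lies to the right, with a median of 0.64, and the heat shock and immediate early lists lie to the left, with medians of -0.49 and -0.35.

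Most microglial transcripts were near or above the control level again, and a few were below it. The depletion group had been left with a median of 5.0% of control over 40 genes shared by microglia and other myeloid cells, and after repopulation the median was 126% of control. Of these 40 genes, 16 were higher (40.0%, against 13.9% of all genes) and 1 was lower (2.5%, against 15.2%), with a list median of 0.32; with length and GC trends taken out, 18 were higher. The summed CPM of the list was 401 to 445 in controls and 470 to 524 after repopulation. In bulk tissue, more cells of a type and more RNA of that type per cell cannot be told apart.

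Mpeg1, which encodes the pore-forming protein perforin-2 of macrophages, had 26.3, 26.9, 27.9, 23.5 and 23.1 CPM in controls and 42.3, 47.3, 44.2, 44.5 and 48.7 CPM after repopulation. The lowest repopulation library exceeded the highest control by a wide margin, and on the log2 scale the difference was 0.82 (SE 0.07, edgeR adjusted p = 3.74e-07), from a depletion mean of 1.00 CPM. Ptprc, the leukocyte antigen CD45, had 3.62 to 3.79 CPM in controls and 6.22 to 7.71 CPM after repopulation (log2 fold change 0.87, SE 0.14, edgeR adjusted p = 5.04e-05). Ctss, the lysosomal protease cathepsin S, had 28.2 to 34.4 CPM in controls and 45.3 to 55.1 CPM after repopulation (0.64, SE 0.08, edgeR adjusted p = 9.26e-06). The gene called lower was Coro1a, an actin regulator that neurons and lymphocytes also express; the group means were 80.9 CPM in control, 69.6 CPM in depletion and 68.6 CPM after repopulation.

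Genes of the homeostatic microglial state had a median near control. Of 22 such genes, 6 were higher (27.3%, against 13.9% of all genes) and 2 lower (9.09%, against 15.2%), their median log2 fold change being 0.07 and their median level 105% of control. The count of lower genes was 4 without depletion 1 or without depletion 5. Csf1r, the receptor that PLX3397 blocks, had 86.2, 87.4, 89.9, 79.8 and 81.8 CPM in controls and 99.1, 105, 106, 102 and 114 CPM after repopulation, with no overlap (log2 fold change 0.30, SE 0.05, edgeR adjusted p = 5.1e-05). Sall1, a transcription factor of microglial identity, rose by 0.24 (SE 0.06, edgeR adjusted p = 0.00311). Cx3cr1, the fractalkine receptor, had means of 46.4 ± 4.44 and 50.02 ± 1.04 CPM (SD, n = 5 each; edgeR adjusted p = 0.258). P2ry12, the ADP receptor, had 24.5 ± 1.64 and 27.0 ± 1.18 CPM (SD, n = 5 each; edgeR adjusted p = 0.0783), and Tmem119 had 19.1 ± 2.05 and 19.6 ± 1.39 CPM (SD, n = 5 each; edgeR adjusted p = 0.815). None of these 3 genes passed the test. Cx3cr1 and P2ry12 overlap other annotated genes, which matters if the counting ignored strand.

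A few microglial genes stayed well under control. Fcrls, an Fc receptor-like gene that marks mouse microglia, had 19.8, 16.4, 18.4, 15.6 and 19.9 CPM in controls and 9.63, 9.52, 10.2, 7.93 and 8.49 CPM after repopulation. All repopulation libraries were below all controls, and on the log2 scale the difference was -0.98 (SE 0.10, edgeR adjusted p = 6.07e-07), from a depletion mean of 0.0507 CPM. Crybb1, a crystallin gene expressed by microglia, had 2.63, 2.89, 2.38, 2.96 and 3.02 CPM in controls and 1.05, 1.63, 1.12, 1.25 and 1.16 CPM after repopulation (log2 fold change -1.16, SE 0.18, edgeR adjusted p = 3.6e-05). Its repopulation mean was 44.7% of control. The second homeostatic gene called lower was Cst3, the protease inhibitor cystatin C, which astrocytes also express; it had means of 390 CPM in control, 271 CPM in depletion and 280 CPM after repopulation. Gpr34, a lysophosphatidylserine receptor gene, was at 77.8% of control (log2 fold change -0.36, SE 0.14, edgeR adjusted p = 0.0587) and was called lower with DESeq2.

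A wider set gave the same range of outcomes. The 77 genes with a depletion mean under 10% of control and a control mean of at least 1 CPM had a median of 117% of control after repopulation, with quartiles of 101% and 135%. Of these 77, 23 were higher (29.9%, against 13.9% of all genes), 52 were not called and 2 were lower (2.6%, against 15.2%), namely Fcrls and Crybb1. The highest was Cd180, a Toll-like receptor relative, at 203% of control (log2 fold change 1.01, SE 0.19, edgeR adjusted p = 0.000261). Lag3, an inhibitory receptor of the immunoglobulin family, had 3.52, 4.89, 6.35, 4.35 and 5.73 CPM in controls and 9.23, 10.9, 9.13, 9.96 and 10.3 CPM after repopulation (1.00, SE 0.13, edgeR adjusted p = 7.43e-06). The choice of these 77 genes and the comparison itself share the control libraries.

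**Figure D4:**
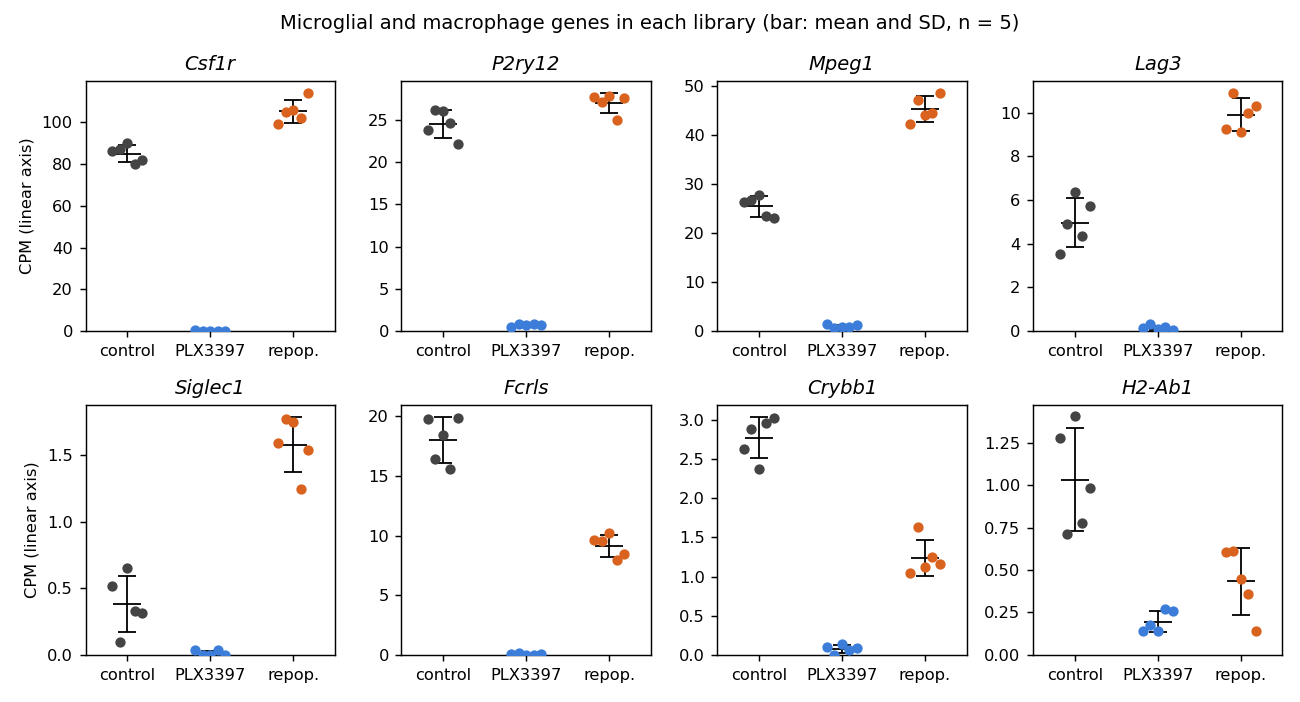
CPM per library (points) with mean and SD (black, n = 5) for 8 microglial and macrophage genes in control, PLX3397 and repopulation cortex, each on a linear axis from 0. All fall toward 0 under PLX3397; Mpeg1, Lag3 and Siglec1 then stand above control, P2ry12 overlaps it, and Fcrls, Crybb1 and H2-Ab1 stand below it.

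**Figure D5:**
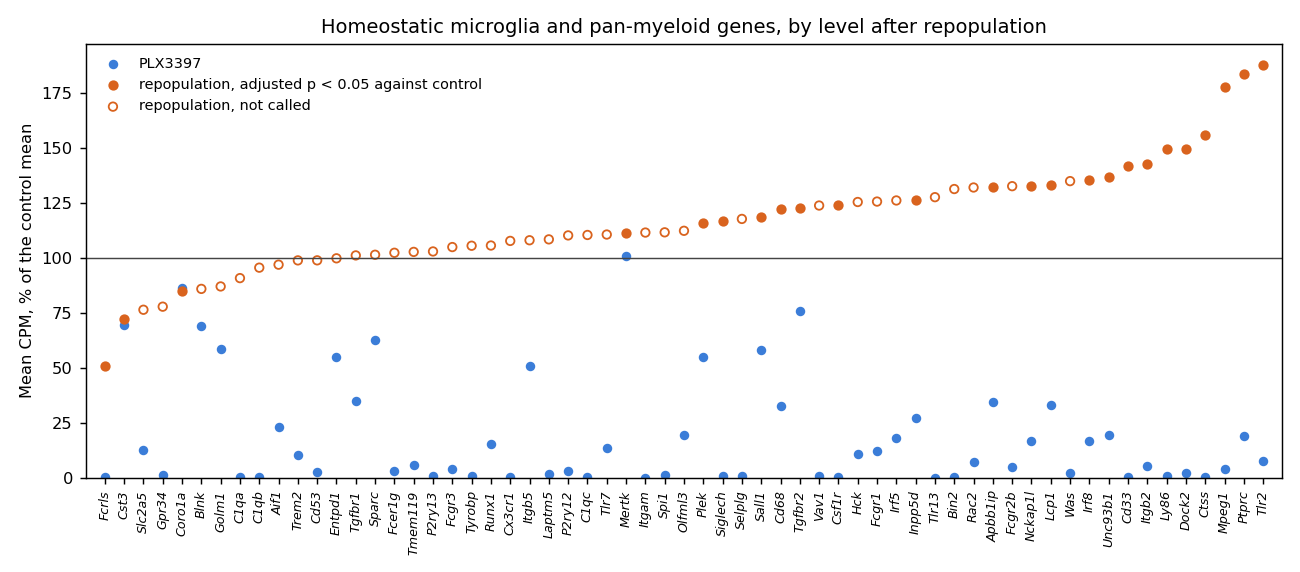
Mean CPM as a percent of the control mean for homeostatic microglia and pan-myeloid genes under PLX3397 (blue) and after repopulation (orange; filled where the adjusted p against control is under 0.05), ordered by the repopulation level. Most repopulation points lie near or above the line at 100%, and Fcrls is the lowest, at 50.9%.

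Activation genes moved in both directions. Of 26 genes of activated or disease-associated microglia, 18 were tested, 4 were higher (22.2%, against 13.9% of all genes) and 4 lower (22.2%, against 15.2%). Itgax, the integrin CD11c, had 0.329, 0.195, 0.31, 0.246 and 0.314 CPM in controls and 0.71, 1.02, 0.932, 1.0 and 1.3 CPM after repopulation (log2 fold change 1.79, SE 0.29, edgeR adjusted p = 5.75e-05). Cd52, a surface glycoprotein of leukocytes, rose by 1.34 (SE 0.23, edgeR adjusted p = 7.92e-05) and Clec7a, the beta-glucan receptor dectin-1, by 1.43 (SE 0.42, edgeR adjusted p = 0.0113), from a mean of only 0.212 CPM. Apoe, a lipid carrier made mostly by astrocytes in healthy brain, fell by 0.32 on the log2 scale (SE 0.05, edgeR adjusted p = 0.000164), and the fatty acid binding protein gene Fabp5 fell by 0.21 (SE 0.05, edgeR adjusted p = 0.00239).

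Markers of other immune cells were measured beside these. Of 13 border macrophage genes, 9 were tested, and 1 was higher (11.1%, against 13.9% of all genes; 2 without control 3 or 5) and 0 lower, with none lower at an unadjusted p under 0.05 or with DESeq2. That gene was Siglec1, a sialic acid receptor that is also induced by interferon: it had 0.514, 0.0973, 0.655, 0.329 and 0.314 CPM in controls and 1.59, 1.77, 1.75, 1.25 and 1.54 CPM after repopulation (log2 fold change 2.00, SE 0.29, edgeR adjusted p = 1.64e-05). The mannose receptor gene Mrc1, a defining marker of border macrophages, was at 92.4% of control (log2 fold change -0.13, SE 0.16, edgeR adjusted p = 0.587), and the list's summed CPM was 41.2 to 55.0 in controls and 47.7 to 55.6 after repopulation. Of 16 blood leukocyte genes only Cd4 had enough counts to be tested. The summed CPM of all 16 was 10.5 to 16.4 in controls and 9.71 to 19.3 after repopulation. Ccr2, a defining gene of blood monocytes, had 0.246 to 0.552 CPM in controls and 0.107 to 0.484 CPM after repopulation, and the monocyte gene Ly6c2 had 0 counts in every control library and at most 0.0714 CPM after repopulation.

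Cell cycle genes were not called higher with all libraries in the fit. Of 30 tested, 0 were higher and 4 lower (13.3%, against 15.2% of all genes), with a median log2 fold change of -0.14; DESeq2 also called 0 higher, and 2 were higher at an unadjusted p under 0.05. Plk1, a mitotic kinase, fell by 0.53 on the log2 scale (SE 0.16, edgeR adjusted p = 0.0112), and Mki67 had a log2 fold change of -0.15 (SE 0.15, edgeR adjusted p = 0.524). Without repopulation 4, 1 gene was higher. The count of lower genes was 2 without control 5 and 2 without repopulation 1, 2, 3 or 5. Of 13 tested genes of cytokines and CSF1R ligands, 2 were higher (15.4%, against 13.9% of all genes) and 3 lower (23.1%, against 15.2%). Il34, the neuronal ligand of CSF1R, fell by 0.26 (SE 0.05, edgeR adjusted p = 0.000462), with -0.17 when length and GC trends were taken out. Csf1, the other CSF1R ligand gene, rose by 0.15 with no overlap (SE 0.05, edgeR adjusted p = 0.0204). The call for Csf1 was lost without any 1 of 4 libraries. Cx3cl1, the neuronal ligand of CX3CR1, fell by 0.18 (SE 0.05, edgeR adjusted p = 0.00524). Cxcl10, an interferon-induced chemokine, had 0.13 to 0.549 CPM in controls and 0.607 to 1.19 CPM after repopulation (log2 fold change 1.48, SE 0.37, edgeR adjusted p = 0.00311).

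The series concerns the ectonucleotidase CD39 and the reactivity of brain vessels, so the purine and vessel genes were described next. Entpd1, the gene of CD39, a surface enzyme that hydrolyses ATP and ADP outside cells, had 14.2, 13, 14.2, 13.2 and 14 CPM in controls and 12.9, 15.1, 13.5, 12.7 and 14.2 CPM after repopulation. The groups overlapped fully, and the difference was -0.01 log2 units (SE 0.07, edgeR adjusted p = 0.943) beside a depletion mean of 7.50 CPM. Nt5e, which encodes CD73, the enzyme that makes adenosine from AMP, had means of 8.29 ± 1.45 and 10.3 ± 1.91 CPM (SD, n = 5 each), and its groups overlapped. Its edgeR adjusted p was 0.0498; the call was lost without any of 11 single libraries, with an edgeR adjusted p of up to 0.156 (without repopulation 2), and was 0.228 with length and GC trends taken out. Adk, the kinase that clears adenosine, had 38.6 to 43.1 CPM in controls and 31.8 to 32.7 CPM after repopulation (log2 fold change -0.32, SE 0.05, edgeR adjusted p = 3.23e-05). Of 26 tested purinergic genes, 1 was higher (3.85%, against 13.9% of all genes) and 2 were lower (7.69%, against 15.2%). With length and GC trends taken out 0 were higher, and without 1 library 0 to 2 were higher and 1 to 2 lower.

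Vessel genes were called in both directions. Of 29 tested genes of vascular tone, 6 were higher (20.7%, against 13.9% of all genes) and 3 lower (10.3%, against 15.2%); 2 were higher without control 1, 3 without repopulation 2 and 2 with length and GC trends taken out. Kcnj8, the pore subunit of the pericyte potassium channel, fell by 0.67 on the log2 scale (SE 0.17, edgeR adjusted p = 0.00431), and Ptgs2, the cyclooxygenase COX-2, fell by 0.45 (SE 0.11, edgeR adjusted p = 0.0058). Of 10 smooth muscle genes, 1 was higher (10.0%, against 13.9% of all genes) and 1 lower (10.0%, against 15.2%). Myh11, the smooth muscle myosin, rose by 0.36 (SE 0.08, edgeR adjusted p = 0.000824), while Myl9, a myosin light chain, fell by 0.38 (SE 0.10, edgeR adjusted p = 0.00331). Of 20 endothelial genes 4 were higher (20.0%, against 13.9%) and 5 lower (25%, against 15.2%), and with length and GC trends taken out 1 was higher and 3 were lower. Ly6c1 fell by 0.49 (SE 0.09, edgeR adjusted p = 0.000371), and the drug transporter gene Abcb1a rose by 0.26 (SE 0.07, edgeR adjusted p = 0.006).

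Astrocyte genes were lower more often than higher. Of 15, 1 was higher (6.67%, against 13.9% of all genes) and 7 lower (46.7%, against 15.2%); their median log2 fold change was -0.09, and 0 were higher with length and GC trends taken out. Glul, the glutamine synthetase, fell from 1462 ± 77.6 to 1186 ± 55.1 CPM (SD, n = 5 each; log2 fold change -0.31, SE 0.04, edgeR adjusted p = 1.29e-05). Aldoc, a glycolytic aldolase, fell by 0.30 (edgeR adjusted p = 3.89e-06) and S100b, a calcium-binding protein, by 0.34 (edgeR adjusted p = 5.31e-06). Of 17 reactive astrocyte genes, 2 were higher (11.8%, against 13.9% of all genes) and 2 lower (11.8%, against 15.2%), with a median of -0.10. C4b and Cxcl10 were the higher ones, and Lcn2 and Hspb1 the lower ones. Gfap, which was not called, had means of 159 CPM in control, 258 CPM in depletion and 162 CPM after repopulation (log2 fold change against control 0.03, SE 0.10, edgeR adjusted p = 0.874). C4b, a complement component, had 22.6, 18.4, 22.9, 20.1 and 19.5 CPM in controls and 32.5, 34.9, 36.4, 29.5 and 48.2 CPM after repopulation, with no overlap (0.80, SE 0.13, edgeR adjusted p = 0.00031) and a depletion mean of 46.8 CPM.

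Oligodendrocyte lineage genes were described as precursor and myelin genes. Of 14 precursor genes 4 were higher (28.6%, against 13.9% of all genes) and 1 lower (7.14%, against 15.2%), and after removal of length and GC trends 2 were higher and 0 lower. The lower count was also 0 without control 1, 3 or 5 or repopulation 1, 2 or 4; 7 were higher without depletion 4. Pcdh15, a protocadherin, rose by 0.38 (SE 0.08, edgeR adjusted p = 0.000699), from 26.7 ± 2.17 to 34.7 ± 1.74 CPM (SD, n = 5 each). With length and GC trends taken out its log2 fold change was 0.19 (edgeR adjusted p = 0.0361), and the call was lost when the replicate block was added to that fit. Of 17 myelin genes 0 were higher and 2 lower, 11.8% against 15.2% of all genes (1 higher with DESeq2 and at an unadjusted p under 0.05), with Mbp, the myelin basic protein, down by 0.21 log2 units (SE 0.05, edgeR adjusted p = 0.0047). Of the myelin genes 1 was higher without control 4, depletion 3 or 4, or repopulation 3. The lower count was 6 without repopulation 5, and 1 without repopulation 1, 2 or 3.

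Several interneuron and activity genes fell. Of 12 interneuron genes, 3 were higher (25%, against 13.9% of all genes) and 6 lower (50%, against 15.2%); 1 was higher with length and GC trends taken out. Pvalb, the calcium buffer of fast-spiking interneurons, had 29.4, 27.9, 28.3, 27.8 and 28.2 CPM in controls and 19.0, 20.7, 19.4, 20.9 and 18.5 CPM after repopulation (log2 fold change -0.53, SE 0.07, edgeR adjusted p = 3.75e-06). Cck, a neuropeptide gene, had 177 to 190 CPM in controls and 123 to 135 CPM after repopulation (-0.50, SE 0.05, edgeR adjusted p = 9.13e-07). Reln, the extracellular protein reelin of superficial interneurons, rose by 0.39 (SE 0.07, edgeR adjusted p = 0.000346), or 0.22 after removal of length and GC trends. Of 19 immediate early genes, which neurons switch on within minutes of activity, 0 were higher and 5 lower (26.3%, against 15.2% of all genes). All 19 were below zero, none was higher at an unadjusted p under 0.05 or with DESeq2 (which called 8 lower), and the median log2 fold change was -0.35. Bdnf, a growth factor induced by activity, had 33.1 to 37.7 CPM in controls and 23.2 to 29.4 CPM after repopulation (-0.42, SE 0.07, edgeR adjusted p = 0.000107). Nr4a3 fell by 0.69 (SE 0.15, edgeR adjusted p = 0.00478), and both genes had similar means in depletion, 26.7 and 27.0 CPM, as after repopulation, 26.3 and 24.8 CPM.

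Hormone and stress response genes were also lower. Of 12 glucocorticoid-induced genes 0 were higher and 7 lower (58.3%, against 15.2% of all genes), with a median of -0.33; without repopulation 5 the count was 4. Tsc22d3, the glucocorticoid-induced leucine zipper GILZ, had 74.2, 54.2, 61.8, 67.8 and 79.5 CPM in controls and 50.3, 48.9, 40.7, 56.6 and 43.7 CPM after repopulation. Only repopulation 4 lay above the lowest control, and on the log2 scale the difference was -0.49 (SE 0.10, edgeR adjusted p = 0.0019). Cdkn1a, the cell cycle inhibitor p21, fell by 0.41 (SE 0.08, edgeR adjusted p = 0.000258). Of 8 heat shock genes 0 were higher and 6 lower (75%, against 15.2%), with a median of -0.49. None of either list was higher at an unadjusted p under 0.05 or with DESeq2. Hspa8, the constitutive HSC70 chaperone, had 1089 ± 124 CPM in controls and 774 ± 31.1 CPM after repopulation (SD, n = 5 each; log2 fold change -0.50, SE 0.09, edgeR adjusted p = 0.000751). Hspb1, a small heat shock protein gene, fell by 1.06 (SE 0.21, edgeR adjusted p = 0.000727), and its controls ranged from 3.24 to 7.01 CPM, with controls 1 and 5 the highest. Handling, time of day and time to freezing were not among the sources used here, and their part in these lists was not tested.

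Outside the immune lists, the higher genes with the smallest adjusted p had long exon models, from 13285 bases for Dmxl2 to 27464 bases for Herc1. Tnik, a kinase of the postsynaptic density, had 224, 262, 237, 252 and 227 CPM in controls and 332, 334, 318, 326 and 345 CPM after repopulation (log2 fold change 0.46, SE 0.04, edgeR adjusted p = 4.86e-07). Dmxl2, Usp34, Pclo, Atrx, Herc1 and Peg3 rose by 0.35 to 0.41. With length and GC trends taken out these folds were smaller, 0.29 for Tnik, 0.24 for Peg3, 0.23 for Dmxl2, 0.21 for Usp34, 0.20 for Atrx, 0.19 for Herc1 and 0.17 for Pclo, and each kept an edgeR adjusted p under 0.05. Against the same controls, all of these genes were already higher in depletion, by 0.21 (Peg3) to 0.33 (Usp34) log2 units. Each of these depletion differences had an edgeR adjusted p under 0.05. The lower genes with the smallest adjusted p included Map1lc3a, an ATG8 protein of autophagosomes, with 111 to 119 CPM in controls and 79.9 to 91.5 CPM after repopulation (-0.42, SE 0.04, edgeR adjusted p = 4.86e-07). Smdt1, a subunit of the mitochondrial calcium uniporter, fell by 0.54 (edgeR adjusted p = 6.07e-07) and the glycolytic enzyme gene Tpi1 by 0.38 (edgeR adjusted p = 1.12e-06). In depletion the log2 fold changes against control were -0.21 for Map1lc3a, -0.28 for Smdt1 and -0.06 for Tpi1.

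Among genes with the largest fold changes, 2 rested on few libraries. Gh, growth hormone, had 8.06, 1.59, 0.414, 0.78 and 0.588 CPM in controls and 0.068 to 0.286 CPM after repopulation; its log2 fold change was -4.17 (edgeR adjusted p = 0.0188) and -2.65 (edgeR adjusted p = 0.0548) without control 1. Lcn2, the siderophore binder lipocalin 2, had 9.02 CPM in control 5 and 0.0821 to 2.39 CPM in the other controls, against 0.0351 to 0.238 CPM after repopulation. Its log2 fold change of -4.02 (edgeR adjusted p = 0.0319) lost its call without control 1, control 5 or any 1 of the repopulation libraries, with edgeR adjusted p from 0.0515 to 0.0858.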

How the data were processed

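Bulk cortex RNA of 15 mice (5 control, 5 depletion, 5 repopulation) was analysed from the table of raw counts per gene that the authors deposited. Per the submitters' processing notes the build was mm10 and the tools named were FastQC, MultiQC, STAR, DESeq2 and DESeq; how reads were counted, by which annotation and with or without strand, is not given in the sources used here. Counts were fitted with edgeR 4.0.16 (R 4.3.3) using TMM factors and its quasi-likelihood test over all 15 libraries and 18369 of 53278 genes kept by filterByExpr. SE is the absolute log2 fold change divided by the root of F. The scripts were tested on simulated data. Same-numbered control and repopulation libraries did not deviate together. No 2 libraries of a group agreed within sampling noise (chi-square per degree of freedom 2.53 to 9.95).

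Members and lists were chosen with earlier results of these data known. Named genes are Csf1r, Cx3cr1, P2ry12, Tmem119, Entpd1 and Nt5e, the 10 higher and 10 lower called genes with the largest fold change at a mean of at least 1 CPM, the 8 of each direction with the smallest adjusted p outside the immune lists, and up to 4 of each list. Other named genes, such as Isg15, Bst2, Gbp2, Mx1, Zbp1, Ifi204, Ifi27l2a, Irf9, Ifnar1, Ifnar2, Nlrc5, Coro1a, Sall1, Cst3, Gpr34, Cd180, Lag3, Clec7a, Mrc1, Ccr2, Ly6c2, Ifnb1, Ifng, Mki67 and Gfap, were chosen after their values were seen. Results for a few genes that this rule names are not reported here. Exon lengths and gene positions come from GENCODE on the same build. Alternatives were other size factors, filters, DESeq2 1.42.0, a replicate block, length and GC correction, and leaving out each library.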

Additional observations from a re-analysis of the deposited data

Results flagged for a closer look

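Of 226 groups of 5 libraries, 113 of the named genes in 2 groups each, 17 had 1 library far from the other 4 by Dixon's gap test (7.52%). The checked genes include Lct, Dsp, C1ql2, Ttr, Gh and Lcn2, described above because single libraries stood out in them. The share is therefore not comparable with the 1 in 20 that chance gives for independent groups. Control 1 was highest for Lct at 10.1 CPM, Dsp at 8.49, C1ql2 at 8.68, Gh at 8.06 and Pvalb at 29.4 CPM, and lowest for Mx1 at 0.185 CPM. Control 3 was highest for Ccr2 at 0.552 CPM. Control 4 was highest for Atrx at 234 and Tap1 at 3.41 CPM and lowest for Mrc1 at 3.57 CPM. Control 5 was highest for Lcn2 at 9.02 CPM and lowest for Lgals3bp at 9.49 CPM. Repopulation 2 was highest for H2-Aa at 1.80 CPM and repopulation 4 for Ttr at 482 CPM. Repopulation 4 was lowest for P2ry12 at 25 CPM, and repopulation 5 was highest for Cx3cr1 at 51.8 and Peg3 at 605 CPM.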

How the results depend on the processing

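Counts of genes higher and lower kept to within 1.5 times of 2548 and 2797 under other size factors, filters, DESeq2 and the 10 libraries alone, and with length and GC trends taken out 1358 were higher. Leaving out 1 library gave 2079 to 2563 higher and 2476 to 2947 lower. Genes past 1 log2 unit, 64 higher and 25 lower, were 38 and 12 with DESeq2, 20 and 6 at a minimum of 1 CPM in 5 libraries, 152 and 103 with no filter, and 53 to 85 and 22 to 38 without 1 library, the last highest without repopulation 2. Without 1 library, interferon response members higher ranged from 39 to 44, pan-myeloid from 14 to 17, homeostatic from 4 to 7, MHC class I from 8 to 9, heat shock members lower from 5 to 7 and glucocorticoid members lower from 4 to 7. The causes of these moves were not tested.

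No pairing by replicate number was detected: same-numbered libraries correlated between -0.0936 and 0.00954, and 0 of 10 libraries correlated best with their own number. These correlations cannot show whether mice were matched by number. With the numbers as a replicate block, 2410 genes were higher and 2670 lower, with 43 interferon response members higher; the block with length and GC trends taken out gave 1267 higher. In that last fit 8 named genes passed the threshold no longer, among them Cx3cl1, Abcb1a, Pcdh15, Cst3 and Plk1. Plk1 also lost its call without control 1 and repopulation 4 together, a setting chosen after seeing the data. Gpr34 was called lower with DESeq2, with no filter and in the 10 libraries alone, H2-Aa with no filter, and P2ry12 higher with upper quartile factors.

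Direction turned for uncalled genes. Without 1 library the log2 fold change ran from -1.13 (without repopulation 4) to 4.27 for Ttr, and from -1.45 to 0.11 for Lct, -1.99 to 1.55 for Dsp and -0.56 to 0.92 for C1ql2, each highest without control 1. For Cd4 it ran from -0.10 (without repopulation 5) to 0.17. Without control 1 and repopulation 4 together, Ttr, Lct, Dsp and C1ql2 had -1.37, 0.12, 1.40 and 1.01. Genes under 1 CPM rest on few counts, so their folds are the least precise.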

Other observations

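Genes of protein synthesis and energy metabolism fell together; the lists in this paragraph and the next were drawn up after their values were seen, and they support nothing on their own. Of 80 tested genes for cytosolic ribosomal proteins, 78 were lower after repopulation and 0 higher, with a median log2 fold change of -0.39, against 15.2% of all genes lower. Length and GC trends taken out left 79 lower. Rps21, a protein of the small subunit, had 83.6, 84.2, 90.6, 72.9 and 78.6 CPM in controls and 48.8, 55.9, 49.4, 50.9 and 56.1 CPM after repopulation, with no overlap. Its depletion mean was 68.0 CPM, between the other groups. Of 79 tested genes of the respiratory chain and ATP synthase encoded in the nucleus, 68 were lower and 0 higher, with a median of -0.31, and 1 was higher without control 2, depletion 2 or repopulation 3; 1 of the 79 and 0 of the 80 ribosomal genes lay above zero. Atp5e, a subunit of ATP synthase, fell by 0.63 on the log2 scale (SE 0.10, edgeR adjusted p = 0.000153). Of 11 tested genes encoded in mitochondrial DNA, 1 was higher (9.09%, against 13.9% of all genes) and 1 lower (9.09%, against 15.2%). The ribosomal genes are short, and 21.0% of the shortest 20% of all genes were lower.

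Of 20 genes of the endoplasmic reticulum chaperones, 15 were lower (75%, against 15.2% of all genes) and 0 higher, and 8 were lower without control 1 and repopulation 4 together. All 3 metallothioneins fell, with Mt3, the neuronal and astrocytic form, from 146 ± 17.6 to 92.9 ± 3.98 CPM (SD, n = 5 each; log2 fold change -0.66, edgeR adjusted p = 0.000292). All 5 genes of the ATG8 family of autophagosome proteins fell, among them Gabarapl1, by 0.33 (SE 0.03, edgeR adjusted p = 6.38e-07). Of 10 NAIP and inflammasome genes 4 were higher (40.0%, against 13.9%) and 0 lower; Naip2, a sensor of bacterial proteins with close paralogs, rose by 0.97 (SE 0.22, edgeR adjusted p = 0.00159). Of 14 neuropeptide genes 6 were lower (42.9%, against 15.2%) and 0 higher, with Crh, corticotropin-releasing hormone, down by 0.64 log2 units (SE 0.12, edgeR adjusted p = 0.000217). In each of the lists of this paragraph, 0 genes went the other way at an unadjusted p under 0.05 and 0 with DESeq2.

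Of 20 lysosomal genes, 4 were higher (20.0%, against 13.9% of all genes) and 6 lower (30.0%, against 15.2%); the lower count was 3 without repopulation 1. With length and GC trends taken out 2 were higher and 7 lower. Man2b1, a lysosomal mannosidase, had 49 to 56.6 CPM in controls and 64.6 to 68.3 CPM after repopulation (log2 fold change 0.33, SE 0.04, edgeR adjusted p = 5.44e-06), and Grn, progranulin, rose by 0.28 (SE 0.04, edgeR adjusted p = 4.12e-05). Ctsb, the protease cathepsin B, fell by 0.19 (SE 0.03, edgeR adjusted p = 0.000129).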
